A study of Mus musculus with 8 samples.

Results

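The genes described here are 10 Wnt pathway genes of the developing kidney, the ligands Wnt4, Wnt9b, Wnt11, Wnt7b, Wnt5a, Wnt2b and Wnt16 and the genes Lef1, Axin2 and Lgr5, taken by their symbols from the 32285 genes of a pooled single-cell count table of mouse kidneys. Each symbol matched 1 row of the table. The pool held cells of 4 male embryos, of which mice ko 1 and ko 2 were Trim28 Δ/Δ and mice wt 3 and wt 4 were Trim28 f/f, at E17.5 by the labels, while the methods of the study name a later embryonic day. In Trim28 Δ/Δ kidneys a floxed Trim28 allele, a gene for a co-repressor of transcription, was recombined by a Cre transgene driven by the Six2 promoter, which is active in nephron progenitor cells, so that nephron cells lose the gene while ureteric bud, stroma, vessels and blood do not descend from the recombined cells. The control kidneys carried floxed alleles that were not recombined, so the Cre transgene went with the Δ/Δ genotype. Effects of the transgene and of the loss of Trim28 cannot be told apart here. A multiplexing tag marked the cells of each mouse, and all 4 mice were sequenced together, so p-values measure the spread between 2 and 2 mice.

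Wnt proteins are secreted, lipid-modified ligands that bind Frizzled receptors. In the canonical branch, receptor binding stops the degradation of beta-catenin, which then enters the nucleus and switches on target genes together with TCF/LEF factors. In the kidney, Wnt9b from the ureteric bud acts on the neighbouring nephron progenitors, which then switch on Wnt4, a ligand needed for the change from mesenchyme to epithelium, whereas Wnt11 is known from the tips of the bud and Wnt7b from the collecting duct.

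After filtering, 7363 cells were assigned to the 4 mice (1316, 1491, 2749 and 1807 cells for ko 1, ko 2, wt 3 and wt 4), with 25761268 to 52777501 unique molecular identifiers (UMIs, counted molecules) per mouse and medians of 16386 to 17354 UMIs per cell. Clustering gave 25 clusters, which were named only from markers and without any of the Wnt genes, each with "-like". In the nephron lineage the names were NPC (nephron progenitor), SSB (S-shaped body), Pod (podocyte), ErPT and PT (early and later proximal tubule), LOH (loop of Henle) and DT (distal tubule). The bud lineage gave CD (collecting duct) and UB (ureteric bud), and the remaining names were Stroma, Mural, Endothelia, Immune and Erythroid. Of the 93 markers, 76 were highest in their own class. None of the SSB markers was highest in SSB-like cells. The naming score of these cells, the mean log2 ratio of a marker list to all other cells, was 0.661 for SSB and 0.444 for renal vesicle. All results for SSB-like cells carry this limit. Mouse wt 3 stood apart, since clusters 13, 15 and 21 held 214, 175 and 97 of its cells and at most 6 of any other mouse, and its CD-like cells were mostly cluster 15 while those of the other mice were mostly cluster 9. Trim28 itself reached 27.6 and 23.7 CPM (UMI counts scaled so that all libraries have the same total) in NPC-like cells of the ko mice and 137 and 160 CPM in those of the wt mice, while in UB-like cells it reached 156 and 141 CPM against 130 and 159 CPM. Since 3' reads come from exons that the deletion spares, these values do not measure the deletion itself.

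RefSeq promoters (GRCm38.p6) were matched for 7 of the 10 genes, with Wnt5a, Wnt7b and Lgr5 unmatched. The letters CTTTGAT and CTTTGAA, cores of the TCF/LEF binding motif, were searched on both strands of windows that run from 250 bases before to 50 bases after a start. Of 11 windows of the members, 1 held a match, at Wnt11, against 8.65% of all 32851 windows (3.73% for CTTTGAT and 5.14% for CTTTGAA). The sequence before the start of Wnt11, chr7:98834862-98835111, is shown because it holds this match, in capitals on the opposite strand and beginning 51 bases before the start. That of Wnt4, chr4:137277385-137277488, is shown because Wnt4 is the only member that passed the threshold between genotypes in a class, with limits given below. It is 104 bases long, since it was cut before the GENCODE start at 137277489. The window searched for Wnt4, chr4:137277385-137277684, was set by a RefSeq start further downstream. Both genes are on the plus strand, and no binding was measured here.
Wnt11: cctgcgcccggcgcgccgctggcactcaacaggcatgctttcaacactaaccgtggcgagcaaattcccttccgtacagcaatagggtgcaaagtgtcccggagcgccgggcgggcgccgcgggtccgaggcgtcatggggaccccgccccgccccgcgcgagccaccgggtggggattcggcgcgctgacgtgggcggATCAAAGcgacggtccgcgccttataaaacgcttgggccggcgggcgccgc
Wnt4: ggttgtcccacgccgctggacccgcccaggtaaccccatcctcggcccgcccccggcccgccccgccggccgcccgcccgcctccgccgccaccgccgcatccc

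The ligands differed in the classes where they were highest. Wnt4 was highest in NPC-like cells, followed by CD-like cells, Wnt9b and Wnt7b in CD-like cells, Wnt11 in UB-like cells, Wnt5a in Stroma-like and tubule cells, and Wnt16 in ErPT-like cells. Lef1 reached several classes at like levels, Lgr5 was highest in SSB-like cells, and Axin2 was highest in UB-like cells. Levels are given in CPM as the mean ± SD over the 4 mice, and they are a description without a test, since the classes come from the same cells. RNA free in the suspension adds to every class. It was estimated from barcodes with 10 to 100 UMIs, and gave an upper limit for each gene and class. The limit used the ratio of the level in a class to that in free RNA, for genes with at least 100 CPM in free RNA. The 5th percentile of these ratios was taken, so the limit is loose and can lie above the level found.

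**Figure D1:**
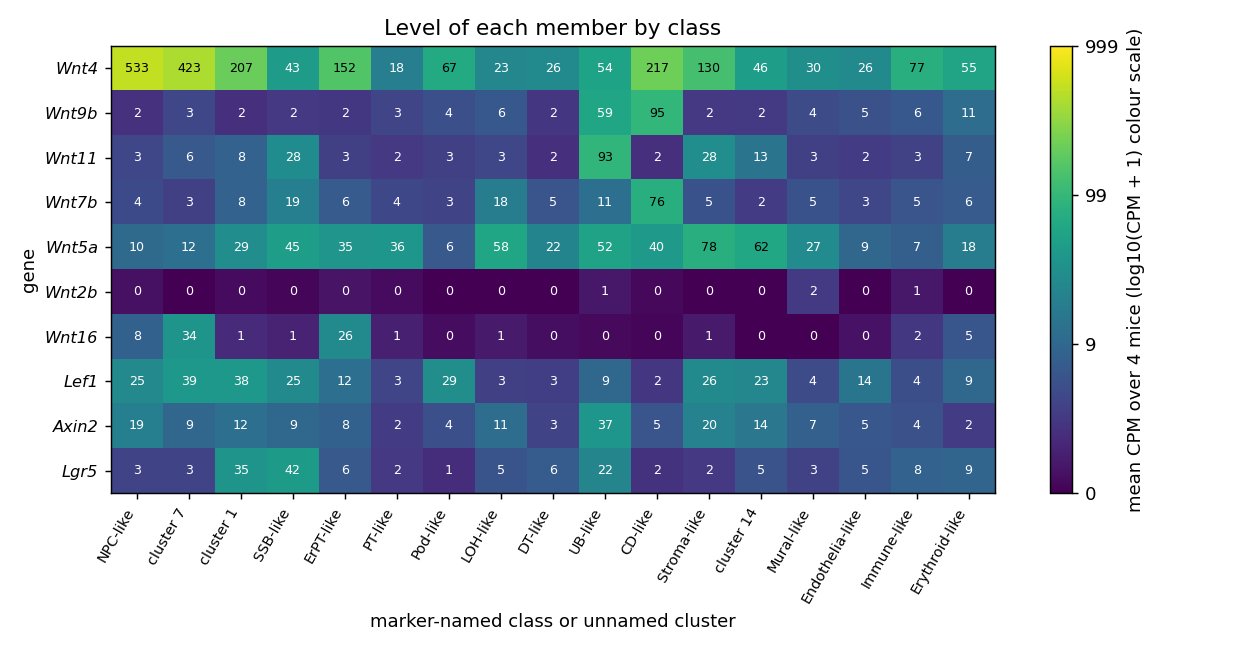
Heat map of the level of each gene (rows) in each of the 14 marker-named classes and in the unnamed clusters 1, 7 and 14 (columns), as the mean CPM over 4 mice, printed in each cell and coloured on a log10(CPM + 1) scale. Wnt4 reached 533 in NPC-like cells but 18.3 in PT-like cells, and Wnt2b was at most 2.22 in every column.

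Wnt4 (ENSMUSG00000036856, chr4:137277489-137299726, plus strand, GRCm38), the ligand of the induced progenitor, stood at 533 ± 249 CPM in NPC-like cells. These cells comprised cluster 8, led by the progenitor genes Cited1, Six2 and Eya1, and cluster 5, led by Tmem100, Six2, Wt1 and Wnt4 itself. Wnt4 reached 684 ± 310 CPM in cluster 5 and 192 ± 23.3 CPM in cluster 8. Cluster 7, which led with Pcp4, Lsp1 and Wt1 and could not be named between podocyte and renal vesicle, held 423 ± 77.3 CPM of Wnt4. These were followed by CD-like cells at 217 ± 46.1 CPM, cluster 1 (cycling cells that could not be named) at 207 ± 31.9 CPM, ErPT-like cells at 152 ± 25.6 CPM and Stroma-like cells at 130 ± 40.5 CPM. CD-like cells and cluster 1 did not differ beyond their spread, nor did ErPT-like and Stroma-like cells, while cluster 1 lay above ErPT-like cells by more than the SD of either. SSB-like cells were far lower at 43.4 ± 17.6 CPM, and PT-like cells lowest of the 14 classes at 18.3 ± 8.98 CPM. Free RNA held 116 CPM of Wnt4, of which at most 41.1 CPM could reach PT-like cells and at most 18.8 CPM NPC-like cells. Median depths were 18066.5 UMIs in NPC-like and 12444.0 UMIs in Endothelia-like cells. At least 1 UMI of Wnt4 was found in 64.5% of NPC-like cells (51.0% after each cell was thinned to 6800 UMIs) and in 17.7% of Endothelia-like cells (8.93% thinned), which are not known to make it.

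Wnt9b (ENSMUSG00000018486, chr11:103727364-103749821, minus strand), the inducing ligand of the bud, stood above 20 CPM only in the 2 classes of the bud lineage among the 14 classes, with 94.8 ± 38.6 CPM in CD-like and 58.7 ± 6.71 CPM in UB-like cells. The next class was Erythroid-like cells at 10.9 ± 9.52 CPM. A UMI of Wnt9b was found in 62.5% of CD-like cells and in 5% of Endothelia-like cells. Within CD-like cells the principal-like cluster 9, led by Aqp2, a water channel, held 127 ± 8.10 CPM in the 3 mice with at least 10 cells in it. Cluster 22, led by the intercalated cell genes Atp6v1g3 and Foxi1, held 37.0 ± 20.7 CPM.

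Wnt7b (ENSMUSG00000022382, chr15:85535437-85582473, minus strand), a collecting duct ligand, stood at 76.3 ± 13.9 CPM in CD-like cells and, unlike Wnt9b, at only 11.4 ± 6.26 CPM in UB-like cells. SSB-like cells followed at 19.0 ± 6.75 CPM. LOH-like cells held 17.6 ± 15.9 CPM, with 40.8 CPM in mouse wt 3, whose LOH-like cells included cluster 21, and 6.78 to 15.2 CPM in the others.

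Wnt11 (ENSMUSG00000015957, chr7:98835112-98855195, plus strand), the ligand of bud tips, was highest in UB-like cells, whose leading genes include Ret and Gfra1, at 93.3 ± 51.8 CPM. Stroma-like cells at 28.4 ± 20.8 CPM and SSB-like cells at 27.8 ± 17.5 CPM came next and did not differ beyond their spread. CD-like cells were at 1.63 ± 0.957 CPM, below the 2.69 CPM that free RNA could give.

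Wnt5a (ENSMUSG00000021994, chr14:28504750-28527448, plus strand), a ligand mostly known for signalling without beta-catenin, was spread widely, at over 20 CPM in 9 of the 14 classes when all mice were pooled. It was highest in Stroma-like cells at 78.1 ± 26.1 CPM, LOH-like cells at 57.6 ± 12.5 CPM, UB-like cells at 52.3 ± 11.3 CPM and SSB-like cells at 45.3 ± 17.0 CPM, neighbours that did not differ beyond their spread. Cluster 20, a small cluster of 130 cells that could not be named between SSB and ErPT and that held 2 cells of wt 3, reached 107 ± 1.32 CPM in the other 3 mice.

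Wnt16 (ENSMUSG00000029671, chr6:22288227-22298522, plus strand) had a narrow pattern, with 34.4 ± 11.2 CPM in cluster 7, 29.9 ± 8.92 CPM in cluster 2 and 25.5 ± 10.6 CPM in ErPT-like cells as a whole. Cluster 2 is the ErPT-like cluster led by Osr2, Cthrc1 and Cdh6. In CD-like cells 0.342% of cells held a UMI of Wnt16, against 16.0% of ErPT-like cells.

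Wnt2b (ENSMUSG00000027840, chr3:104945272-104961921, minus strand) had only 26 UMIs over all 7363 cells and passed the filter on low counts in no class. Its 2.22 CPM in Mural-like cells rested on 2 UMIs, both from ko 2.

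Lef1 (ENSMUSG00000027985, chr3:131110471-131224356, plus strand), a TCF/LEF transcription factor that is itself switched on by canonical signals in many tissues, stood at 39.3 ± 7.85 CPM in cluster 7, at 38.4 ± 4.22 CPM in the cycling cluster 1 and at 33.8 ± 9.32 CPM in cluster 5. It also reached 40.6 ± 28.9 CPM over 3 mice in cluster 23, Endothelia-like cells led by Tm4sf1, Sox17 and Gja4, where the spread was wide. Pod-like cells held 29.4 ± 17.3 CPM, Stroma-like cells 26.0 ± 12.7 CPM, SSB-like cells 25.2 ± 7.14 CPM and NPC-like cells 24.9 ± 9.03 CPM, all within each other's spread. A gene model on the same strand overlaps Lef1 and another overlaps Wnt2b, and reads in such an overlap cannot be told apart.

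Axin2 (ENSMUSG00000000142, chr11:108920349-108950783, plus strand), a scaffold of the complex that degrades beta-catenin and a common readout of canonical signals, was highest in UB-like cells at 36.6 ± 5.98 CPM. Cluster 8, the Cited1-rich progenitors, followed at 27.6 ± 16.1 CPM, and Stroma-like cells held 20.2 ± 2.65 CPM. The difference between UB-like and Stroma-like cells was larger than the spread of either.

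Lgr5 (ENSMUSG00000020140, chr10:115450311-115587780, minus strand), a receptor for R-spondins and a target of Wnt signals in other tissues, was highest in SSB-like cells at 42.2 ± 14.8 CPM, in the cycling cluster 1 at 34.8 ± 9.38 CPM and in UB-like cells at 22.2 ± 6.51 CPM. It was at 3.13 ± 3.38 CPM in NPC-like and 3.16 ± 1.59 CPM in cluster 7 cells, where Wnt4 was highest. A UMI of Lgr5 was found in 33.8% of SSB-like and 3.42% of CD-like cells.

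The genes most like each member over the 25 clusters, by Pearson's r of log2(CPM + 1) among genes reaching 20 CPM in a cluster, are given as a description, since all clusters share 1 library and its free RNA. For Wnt7b they were Krt19 (r = 0.93), Plet1 (0.87) and Ppl (0.86), epithelial genes, and for Wnt9b Gm43305 (0.92), Ros1 (0.90) and Il17re (0.90). Lef1 was nearest to Ltbp1 (0.83), D16Ertd472e (0.83) and Hey1 (0.81), and Wnt16 to Ms4a2 (0.84), Fgb (0.77) and Osr2 (0.72). Wnt4 was nearest to Atm (0.78), Msh6 (0.77) and Gxylt2 (0.75). No r passed 0.78 for Axin2 with Amer1, Mtap and Pard6g (0.78 to 0.77), Wnt5a with Carmil1, Bicc1 and Tox (0.77 to 0.76), Wnt11 with Sct, Col9a3 and Ror2 (0.69 to 0.63) or Lgr5 with Sox9, Spint4 and Myb (0.68 to 0.63). Wnt2b reached 20 CPM in no cluster and was not compared.

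The genotype comparison asks which of these genes changed when Trim28 was lost in nephron progenitors. For each class the UMIs of a mouse were added up and compared with edgeR's quasi-likelihood test and Benjamini-Hochberg adjustment over all genes of the class, with a threshold of 0.05. Log2 changes are ko over wt, with standard errors (SE). In fits with 1 mouse left out, the lone mouse was assumed to vary like the pair of the other genotype. Such a fit does not measure the spread of the lone mouse's genotype. Over the 14 classes, 66 member and class pairs passed the filter on low counts, from 9 of the 10 members, and 2 were called, both of them Wnt4, against 0.346% of all pairs of a gene and a class. At an unadjusted p under 0.05 there were 18 member pairs (27.3%), against 6.98% of all pairs, and the pairs share the same 4 mice. Wnt4 and Wnt5a alone were tested in 13 and 11 classes. The members were also chosen with earlier results of these data known, so these shares do not test the list. Wnt4 rose in NPC-like cells. In PT-like cells it passed as lower in the ko mice, at levels under the limit for free RNA, and this call was absent without the cells marked by Scrublet (log2 change 0.12, adjusted p = 0.935). In simulated counts for NPC-like cells the test recovered 86% of 4-fold and 29% of 2-fold changes, so that a change of 2-fold in a member would often be missed.

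**Figure D2:**
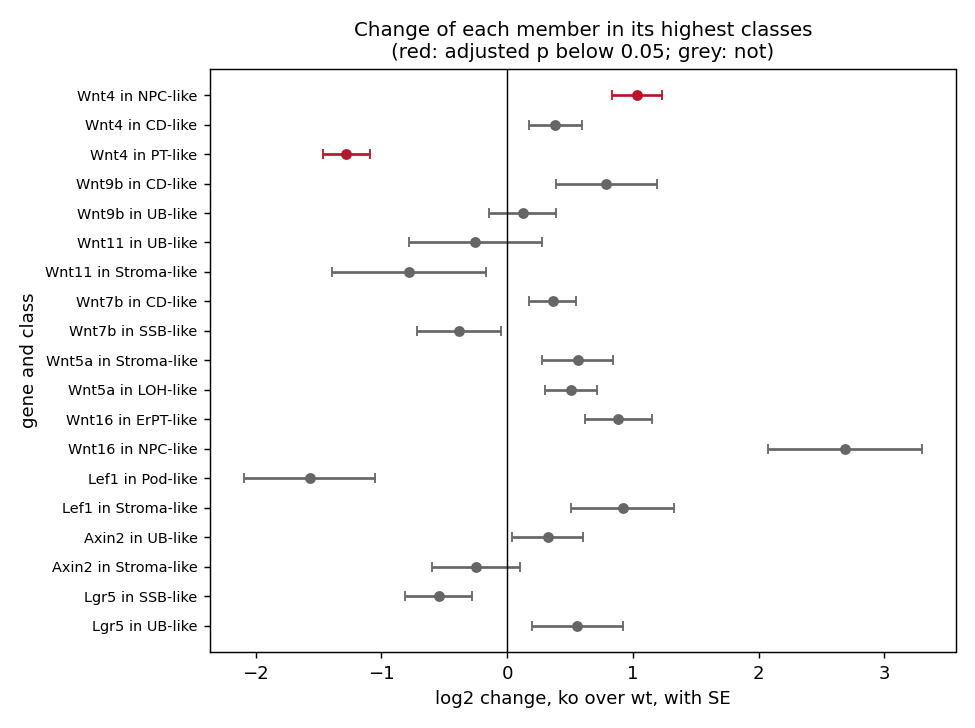
Log2 change (ko over wt) with SE of each member in its highest and second-highest tested class, and in any class where it was called, from edgeR's fit of 2 against 2 mice. Wnt4, in red, passed in NPC-like (1.03) and PT-like (-1.28) cells, and Wnt16 in NPC-like cells had the highest value in the plot (2.69) without passing the threshold.

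In NPC-like cells Wnt4 stood at 792 CPM in ko 1, 686 in ko 2, 255 in wt 3 and 398 in wt 4. Both ko mice were above both wt mice, and the ko values were closer to each other than the wt values. The log2 change was 1.03 (SE 0.20, edgeR adjusted p = 0.0383), in a class where 1.38% of tested genes were called. The call was lost when either ko mouse was left out, with log2 changes of 0.93 without ko 1 (adjusted p = 0.891) and 1.12 without ko 2 (adjusted p = 0.461). Wnt4 was found in 80.9% of NPC-like cells of ko 1 (exact Clopper-Pearson 95% interval 66.7 to 90.9), 85.1% of ko 2 (75.0 to 92.3), 58.1% of wt 3 (51.2 to 64.8) and 62.1% of wt 4 (57.1 to 66.96), intervals that cover counting error only, and in 72.3%, 73.0%, 46.0% and 46.9% after thinning. The difference after thinning was 26.2 percentage points (exact permutation test, two-sided, p = 0.333, the smallest that 2 against 2 mice allow). The ko mice gave few of these cells, 47 and 74, against 215 and 388 for the wt mice.

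The 2 clusters of NPC-like cells were also fitted apart. In cluster 5 Wnt4 stood at 938 CPM in ko 1, 927 in ko 2, 293 in wt 3 and 580 in wt 4, a log2 change of 0.98 (SE 0.24, edgeR adjusted p = 0.0770), while 1.68% of the genes tested in that cluster were called. The log2 change was 0.57 without wt 3 and 1.57 without wt 4. It passed without a filter on low counts (0.94, edgeR adjusted p = 9.03e-13) and was far from passing in DESeq2 (0.99, adjusted p = 0.979). In the Cited1-rich cluster 8 it stood at 202, 220, 172 and 174 CPM, a log2 change of 0.17 (SE 0.21, adjusted p = 0.970). The mice did not overlap in either cluster, and neither value passed with all mice and the filter. Of NPC-like cells, 70.2% lay in cluster 5 in ko 1, 54.1% in ko 2, 60% in wt 3 and 45.6% in wt 4. In cluster 7 the groups overlapped, with 363, 481, 351 and 499 CPM and the log2 change was -0.08 (SE 0.21, adjusted p = 0.994).

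**Figure D3:**
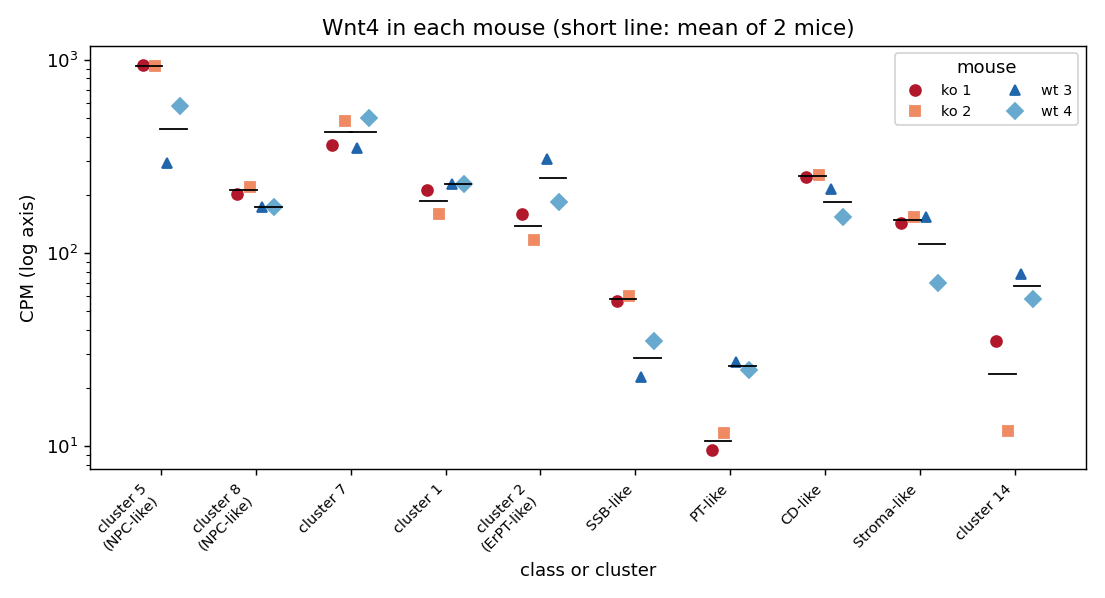
Wnt4 in CPM (log axis) in each of the 4 mice (points) and the mean of each genotype (short lines), for 10 classes and clusters. In cluster 5 both ko mice (938 and 927) lie above both wt mice (293 and 580), and in PT-like cells both ko mice (9.57 and 11.7) lie below both wt mice (27.3 and 24.7).

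Markers also differed between the genotypes in these cells. In NPC-like cells the summed level of the 7 progenitor markers was 276 and 386 CPM in the ko mice and 773 and 963 CPM in the wt mice, with 6 of 7 markers lower in every ko mouse. The summed level of the 7 renal vesicle markers was 1651 and 1401 CPM in the ko mice and 1139 and 981 CPM in the wt mice, with 4 of 7 higher and 1 lower in every ko mouse, and none of the 14 markers was at 0. Within cluster 5 all 7 progenitor markers were lower in every ko mouse (129 and 99.5 against 426 and 631 CPM in sum), and Six2 alone stood at 21.7 and 14.8 against 87.1 and 112 CPM. In cluster 8 Wnt4 stood at 202 and 220 against 172 and 174 CPM. There the progenitor markers summed to 875 and 938 CPM in the ko and 1539 and 1373 CPM in the wt mice. Of these, 3 of 7 were lower and 1 was higher in every ko mouse. In NPC-like cells 4 of 7 SSB and 4 of 8 CD markers were also higher in every ko mouse, and 0 lower. Of all gene and class pairs with at least 10 UMIs, 21.6% were higher and 15.0% lower in every ko mouse. Whether these differences of markers have a part in the change of Wnt4 was not tested.

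In PT-like cells Wnt4 stood at 9.57 CPM in ko 1, 11.7 in ko 2, 27.3 in wt 3 and 24.7 in wt 4, a log2 change of -1.28 (SE 0.19, edgeR adjusted p = 0.0393). Both ko mice were below both wt mice in this class, where 0.479% of tested genes were called, and the call was lost without ko 1 (-1.15, adjusted p = 0.172) or without ko 2 (-1.43, adjusted p = 0.0762). All 4 values lie under the limit of 41.1 CPM for free RNA. The change also rested on cells that Scrublet, a caller of doublets, had marked, 7.06% and 7.32% of the PT-like cells of the ko mice and 18.1% and 10.9% of those of the wt mice. Without them Wnt4 stood at 6.88, 7.34, 5.66 and 7.23 CPM, the groups overlapped and the log2 change was 0.12 (SE 0.27, edgeR adjusted p = 0.935).

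Wnt4 in the other classes did not pass with all mice and the filter. In SSB-like cells it stood at 56.4, 59.5, 22.7 and 34.8 CPM in ko 1, ko 2, wt 3 and wt 4, so that both ko mice were above both wt mice and above the 35.9 CPM that free RNA could give, with a log2 change of 0.99 (SE 0.22, edgeR adjusted p = 0.0635). This value passed the threshold without the cells marked by Scrublet (1.24, SE 0.20, edgeR adjusted p = 0.0177), with tags assigned by k-means (1.41, adjusted p = 0.0119) and without a filter (0.96, adjusted p = 0.00129). It did not pass in DESeq2 (0.99, adjusted p = 0.293) or without either ko mouse, and was 0.70 without wt 3 and 1.32 without wt 4. In CD-like cells, which do not descend from the recombined cells, the values were 246, 254, 215 and 153 CPM, and the log2 change was 0.38 (SE 0.21, edgeR adjusted p = 0.899), or 0.67 without wt 3. In Stroma-like cells the groups overlapped, with 143, 154, 153 and 69.8 CPM (0.33, SE 0.32, adjusted p = 0.999), and the log2 change was 1.04 without wt 3. In LOH-like cells the groups overlapped at 17.0, 25.8, 9.47 and 40.4 CPM (-0.096, SE 0.62, adjusted p = 0.974). Only wt 4 was above the 38.2 CPM that free RNA could give there. The direction turned with the wt mouse left out, at -0.92 without wt 3 and 1.14 without wt 4. Cluster 14, which scored closest to stroma but could not be named (led by Pdgfrb, Ebf1 and Rgs5), had 35.2, 11.9, 77.3 and 57.6 CPM, on 14, 5, 136 and 45 UMIs. Both ko mice were lower, with ko 2 under the 21.5 CPM that free RNA could give. The log2 change was -1.61 (SE 0.44, edgeR adjusted p = 0.390). The log2 change ranged from -2.60 without ko 1 to -1.02 without ko 2, and was -1.81 without wt 4. It passed without a filter (-1.65, adjusted p = 0.00782) and was -2.96 with tags assigned by k-means (adjusted p = 0.0512). Cluster 2 of the ErPT-like cells had 159, 117, 306 and 183 CPM and the log2 change was -0.83 (SE 0.24, adjusted p = 0.360). It was -0.42 without wt 3 and -1.17 without wt 4, and passed without a filter (-0.85, adjusted p = 2.96e-06). The clusters that overlapped cluster 2 most were larger, with 784 cells in place of 560 when the Wnt genes were kept in the clustering (-0.019), 778 with tags assigned by k-means (-0.21) and 690 with a minimum of 2500 UMIs (-0.36).

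Wnt9b in CD-like cells stood at 127 CPM in ko 1, 115 in ko 2, 40.0 in wt 3 and 97.0 in wt 4. The ko mice were higher, but wt 3 was far below the others (log2 change 0.79, SE 0.40, edgeR adjusted p = 0.899), and its CD-like cells were mostly cluster 15. Within cluster 9, where wt 3 had 3 cells, Wnt9b stood at 136 CPM in ko 1, 126 in ko 2 and 119 in wt 4. In UB-like cells it stood at 58.9, 65.3, 49.5 and 61.3 CPM, with overlapping groups and the log2 change was 0.12 (SE 0.27, adjusted p = 0.9998).

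Wnt7b in CD-like cells stood at 92.5, 82.2, 69.4 and 61.0 CPM, with both ko mice above both wt mice and a log2 change of 0.36 (SE 0.18, edgeR adjusted p = 0.899). In SSB-like cells it stood at 12.9, 19.8, 15.0 and 28.1 CPM, and the groups overlapped. In LOH-like cells both ko mice, at 6.78 and 7.61 CPM, were below wt 3 at 40.8 and wt 4 at 15.2 CPM, a log2 change of -2.05 (SE 0.51, adjusted p = 0.387), and within cluster 10, without cluster 21, the log2 change was -0.79 (SE 0.40, adjusted p = 0.673). The value over LOH-like cells passed without a filter (-2.08, adjusted p = 0.000293), and was -2.10 without ko 2 and -2.52 without wt 4.

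Wnt11 in UB-like cells stood at 102 CPM in ko 1, 72.7 in ko 2, 38.2 in wt 3 and 161 in wt 4, so that the wt mice enclosed the ko mice (log2 change -0.25, SE 0.53, edgeR adjusted p = 0.9998). In Stroma-like cells it stood at 25.6, 18.5, 58.2 and 11.2 CPM, again overlapping. In SSB-like cells it stood at 49.0, 31.2, 6.58 and 24.3 CPM, with both ko mice higher and the log2 change was 1.34 (SE 0.41, adjusted p = 0.210). It passed without a filter (1.32, adjusted p = 7.59e-05), and was 2.51 without wt 4 and 1.66 without ko 2.

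Wnt5a was higher in both ko mice than in both wt mice in 8 of the 11 classes where it was tested. These were Stroma-, LOH-, SSB-, PT-, ErPT-, DT-, NPC- and Erythroid-like cells. Stroma-like and Erythroid-like cells do not descend from the recombined cells, and the latter held only 42 UMIs of Wnt5a. Of all 175983 gene and class pairs with at least 10 UMIs, 21.6% had this order, while 127311 pairs passed the filter that set the 11 classes. Wnt5a was lower in both ko mice in 1 class (CD-like), against 15.0% of pairs, and overlapped in 2 (UB-like and Endothelia-like). The classes share the same 4 mice and are not independent. In Stroma-like cells it stood at 115, 75.2, 69.4 and 53.1 CPM (log2 change 0.56, SE 0.28, edgeR adjusted p = 0.999), and in LOH-like cells at 65.0, 70.2, 42.3 and 53.1 CPM (0.51, SE 0.21, adjusted p = 0.565). The adjusted p was lowest of the classes in SSB-like cells, at 58.5, 59.98, 24.9 and 37.8 CPM (0.89, SE 0.22, adjusted p = 0.0955), and reached 0.0751 in cluster 2 of the ErPT-like cells, at 52.8, 42.3, 15.7 and 22.2 CPM (log2 change 1.35, SE 0.25). None of these passed with all mice and the filter. Without the filter Wnt5a passed in SSB-like cells (0.87, adjusted p = 0.00493), ErPT-like cells (0.91, adjusted p = 0.0314), PT-like cells (0.58, adjusted p = 0.0303) and cluster 2 (1.32, adjusted p = 6.75e-05). The change was 0.80 in Stroma-like cells without wt 3, and 0.65 in LOH-like, 1.22 in SSB-like and 1.01 in PT-like cells without wt 4. In ErPT-like cells it was 1.06 without wt 3 and 0.83 without wt 4, and in cluster 2 it was 1.08 and 1.57. Wnt5a passed in no class in DESeq2 or without a ko mouse.

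**Figure D4:**
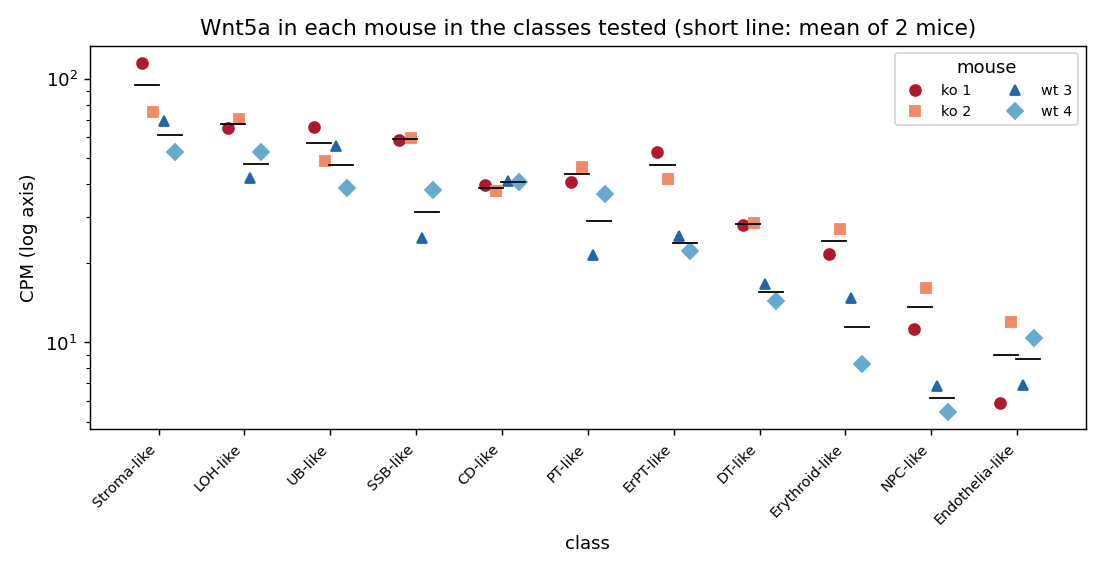
Wnt5a in CPM (log axis) in each of the 4 mice (points) and the mean of each genotype (short lines), for the 11 classes where it was tested. Both ko mice lie above both wt mice in 8 classes, as in SSB-like cells (58.5 and 59.98 against 24.9 and 37.8), with no class past the threshold.

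Wnt16 in NPC-like cells stood at 11.2, 14.6, 3.41 and 0.778 CPM in ko 1, ko 2, wt 3 and wt 4, from 11, 21, 14 and 6 UMIs. Both ko mice were higher, and the log2 change of 2.69 (SE 0.61) did not pass (edgeR adjusted p = 0.0717). Without the cells marked by Scrublet it was 1.64 (SE 0.75, adjusted p = 0.559). In ErPT-like cells it stood at 40.0, 26.7, 17.1 and 18.2 CPM (log2 change 0.88, SE 0.27, adjusted p = 0.505), but within cluster 2 alone, which left out the wt 3 cells of cluster 13, the groups overlapped at 40.0, 27.1, 33.2 and 19.1 CPM.

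Among the mediators and targets, Lef1 in Pod-like cells stood at 15.1, 17.1, 52.3 and 33.3 CPM, with both ko mice lower on 5 and 3 UMIs (log2 change -1.57, SE 0.52, edgeR adjusted p = 0.462). This value was -2.37 without the cells marked by Scrublet. With the Wnt genes kept in the clustering or tags assigned by k-means, the class also took in the cells of cluster 7 and so held 515 and 508 cells in place of 142, and its values (-0.46 and -0.51) are of different cells. In Stroma-like cells it stood at 29.3, 40.9, 23.5 and 10.2 CPM, with both ko mice higher (0.92, SE 0.41, adjusted p = 0.999). Axin2 stood at 43.0, 40.1, 30.1 and 33.1 CPM in UB-like cells (0.32, SE 0.28, adjusted p = 0.9998) and overlapped in Stroma-like cells at 19.5, 18.5, 24.1 and 18.6 CPM. In NPC-like cells, where Wnt4 rose, Axin2 overlapped at 14.3, 29.3, 10.7 and 20.9 CPM (0.34, SE 0.41, adjusted p = 0.866), and Lef1 at 35.8, 23.0, 26.8 and 14.01 CPM. Lgr5 in SSB-like cells stood at 31.3, 38.3, 64.0 and 35.2 CPM, where only wt 3 was high (-0.55, SE 0.27, adjusted p = 0.513), and in UB-like cells at 29.4, 24.5, 13.9 and 21.0 CPM.

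Summed over all cells of a mouse, which mixes the level per cell with the makeup of the sample, none of the 9 tested members passed in edgeR, with 4 of them at an unadjusted p under 0.05. Fewer cells of a type and less RNA per cell cannot be told apart in these sums. Wnt5a stood at 41.5, 43.4, 25.7 and 25.5 CPM (log2 change 0.68, SE 0.11, edgeR adjusted p = 0.0868) and Wnt9b at 15.8, 16.7, 7.86 and 10.6 CPM (0.77, SE 0.19, adjusted p = 0.155), and both passed in DESeq2 (adjusted p = 0.00324 and 0.0391). Wnt4 went the other way from NPC-like cells, at 111, 122, 130 and 177 CPM (-0.44, SE 0.17, edgeR adjusted p = 0.299), with -0.65 without wt 3 and -0.20 without wt 4. The share of NPC-like cells was 3.57% in ko 1, 4.96% in ko 2, 7.82% in wt 3 and 21.5% in wt 4.

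Of 75 other genes of the pathway, 510 gene and class pairs passed the filter and were tested. Of these, 2 pairs rose and 3 fell, which is 0.98% against 0.346% of all gene and class pairs. Only 3 of the 12 other ligands, in 5 pairs, and 5 of the 8 genes of the R-spondin axis could be tested, with both genes for ligand release and all 17 cytoplasmic or nuclear mediators. None of these tested genes was called in a class by edgeR, with 47 pairs over all roles (9.22%, against 6.98% of all pairs) at an unadjusted p under 0.05. DESeq2 called 5 pairs, none of them of these 4 roles. The list was chosen with earlier results of these data known, so these shares do not test it. The most abundant of each role were Sostdc1 among inhibitors (2489 CPM in LOH-like cells with all mice pooled), Csnk1a1, a kinase of the degradation complex (1107 in Pod-like cells), Wls, the carrier that releases Wnt ligands (289 in CD-like cells), Lgr4, an R-spondin receptor (254 in ErPT-like cells), Ryk, a Wnt receptor (172 in Pod-like cells), Cd44 among targets (127 in Immune-like cells) and Wnt5b among ligands (22.9 in Pod-like cells).

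Among receptors, Fzd10 rose in NPC-like cells, from 8.53 and 6.87 CPM in wt 3 and wt 4 to 34.8 and 21.6 CPM in ko 1 and ko 2 (log2 change 1.72, SE 0.33, edgeR adjusted p = 0.0375). Fzd8 rose in cluster 7, from 6.39 and 5.11 to 26.1 and 25.7 CPM (2.06, SE 0.41, adjusted p = 0.0481), where 0.415% of tested genes were called. Myc, a growth regulator and Wnt target in other tissues, fell in NPC-like cells, from 43.4 and 37.1 to 16.4 and 14.6 CPM (-1.51, SE 0.26, adjusted p = 0.0270), and in cluster 5 (-1.96, SE 0.37, adjusted p = 0.0207). DESeq2 called neither Fzd8 in cluster 7 (adjusted p = 0.275) nor Myc in cluster 5 (adjusted p = 0.188), and each of these 4 calls was lost without ko 1 or without ko 2 (adjusted p of 0.0561 to 0.864). The lower progenitor and higher renal vesicle markers given beside Wnt4 are of the same NPC-like and cluster 5 cells, and their part in the values of Fzd10 and Myc was not tested. Fzd8 was also not called with the Wnt genes kept in the clustering (1.88, adjusted p = 0.0850), with tags assigned by k-means (2.12, adjusted p = 0.0605) or with a minimum of 2500 UMIs (1.67, adjusted p = 0.157).

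Among secreted inhibitors, both calls in SSB-like cells were decreases, in a class where 0.859% of genes were called. Sostdc1, an antagonist of Wnt and BMP signals, fell from 820 and 674 to 513 and 489 CPM (-0.61, SE 0.10, edgeR adjusted p = 0.0132), and Dkk1, which blocks the co-receptors Lrp5 and Lrp6, fell from 39.8 and 33.1 to 16.3 and 17.9 CPM (-1.12, SE 0.23, adjusted p = 0.0413). In these cells 5 of the 7 renal vesicle markers were lower in every ko mouse, their sum being 1368 and 1310 CPM against 1781 and 1721 CPM, and the part of this in the 2 decreases was not tested. Sostdc1 was no longer called without the cells marked by Scrublet (-0.53, SE 0.12, adjusted p = 0.0883) or without ko 2 (adjusted p = 0.0753), and Dkk1 not in DESeq2 (adjusted p = 0.405), without ko 1 (adjusted p = 0.215) or without ko 2 (adjusted p = 0.156). With the tags assigned by k-means the change of Dkk1 was only -0.35 (SE 0.32, adjusted p = 0.809). Sfrp1, a soluble decoy for Wnt ligands, rose in DT-like cells from 64.7 and 101 to 293 and 186 CPM (1.55, SE 0.26, adjusted p = 0.0149), where 0.781% of genes were called, and was not called without ko 1 (1.15, adjusted p = 0.134). Its change was larger without the cells marked by Scrublet (2.21) and with tags assigned by k-means (2.30). Sfrp1 is also a leading gene of the LOH-like cluster 10, and the summed LOH markers in DT-like cells were 1616 and 1457 CPM in the ko mice and 1302 and 1446 CPM in the wt mice. The summed CD markers there were 719 and 697 CPM against 1617 and 1694 CPM, with 5 of 8 lower in every ko mouse, and the part of either list in the value of Sfrp1 was not tested.

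Sostdc1 also rose in cluster 8 of the NPC-like cells, from 35.2 and 20.6 to 98.4 and 108 CPM (1.83, SE 0.35, edgeR adjusted p = 0.0250), where 0.717% of genes were called. With all mice pooled, Sostdc1 was at 20 CPM or more in all 14 classes. The limit for free RNA was not computed for it or the other genes outside the 10 members. Without the cells marked by Scrublet, which were 1 of 14 and 1 of 34 cells in the ko mice, it stood at 16.6, 54.5, 35.4 and 20.8 CPM in ko 1, ko 2, wt 3 and wt 4, and the log2 change of 0.49 (SE 0.46) no longer passed (adjusted p = 0.958). The call was also lost with a minimum of 2500 UMIs (adjusted p = 0.0543), without ko 1 (adjusted p = 0.165), without ko 2 (adjusted p = 0.512) or without wt 4 (adjusted p = 0.0658). In Stroma-like cells, Dkk1 (31.7 and 17.1 against 67.8 and 94.9 CPM, edgeR adjusted p = 0.858) and Rspo3, an R-spondin (4.88 and 11.9 against 58.8 and 48.4 CPM, adjusted p = 0.529), were lower in every ko mouse without passing. They were chosen after their values were seen, and 15.0% of all gene and class pairs with at least 10 UMIs had this order.

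**Figure D5:**
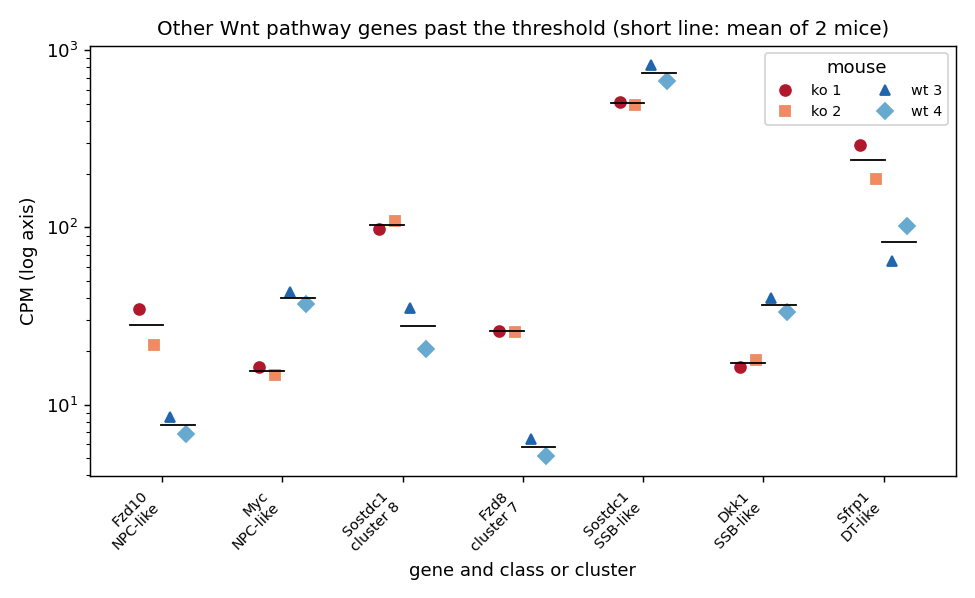
The other Wnt pathway genes past the threshold, in CPM (log axis) in each of the 4 mice (points) with the mean of each genotype (short lines). The columns were picked because they passed, and in each the genotypes do not overlap, as for Sfrp1 in DT-like cells (293 and 186 against 64.7 and 101). Without the cells marked by Scrublet, Sostdc1 in cluster 8 overlapped, at 16.6 and 54.5 CPM in the ko mice and 35.4 and 20.8 CPM in the wt mice.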

How the data were processed

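Counts of UMIs for 32285 genes and 12 multiplexing tags in 3921239 barcodes of 1 pool were deposited by the authors as the raw output of Cell Ranger, with 6.0.0 named in the methods and 4 in the file header, on GRCm38/mm10 by the labels, with no normalization. The tags of the 4 mice come from the authors' deposited tag list. The 6 bulk samples of the series were not analysed here.

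Barcodes above the order-of-magnitude minimum for 24000 expected cells (21385 barcodes) were kept where they held 200 genes or more and no more than 10% mitochondrial counts (19272). HTODemux assigned 7363 of them to a mouse, while 4721 carried several tags, 2680 none and 4508 a tag with no mouse listed. Each of these was left out. Cells were normalised with sctransform 0.4.2 and clustered in Seurat 5.3.0 (30 components, resolution 0.8) on 2971 variable genes, from which 29 listed Wnt genes had been taken out. Cells that Scrublet (in scanpy 1.11.5) marked, 563 of 7363, were kept in the main analysis. Clusters were named from marker lists, with thresholds set after the clusters were seen.

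Classes in which each mouse had 10 cells or more were tested. Counts were added up by mouse, filtered with filterByExpr and tested with edgeR 4.0.16 (TMM, quasi-likelihood, two-sided, Benjamini-Hochberg over all genes of the class, threshold 0.05) in R 4.3.3. The study tested cells as replicates. Here the replicate was the mouse. DESeq2 1.42.0 was an alternative. CPM were computed here from the summed counts, and depth sets their precision (25761268 to 52777501 UMIs per mouse). Tested on simulated data, the script recovered 86% of 4-fold and 29% of 2-fold changes in NPC-like cells, and 91% and 10% in CD-like cells. Shares of cells used exact permutation tests (scipy 1.17.1).

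The genes and lists were chosen with earlier results of these data known. Named were the 10 genes, other pathway genes past the threshold or most abundant in their role, the 3 genes most like each member, leading genes and markers of clusters, and Trim28. Outside this rule, Dkk1 and Rspo3 in Stroma-like cells were named after their values were seen. Alternatives were DESeq2, no filter, each mouse left out, a minimum of 2500 UMIs, k-means tag assignment, clustering with the Wnt genes, no cells marked by Scrublet and thinned cells.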

Additional observations from a re-analysis of the deposited data

Results flagged for a closer look

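Wnt4 was higher in every ko mouse in NPC-like cells (log2 change 1.03) and lower in every ko mouse in PT-like cells (-1.28), so that the changes lay 2.31 apart on the log2 scale. It was also higher in every ko mouse in CD-like cells (0.38), 1.66 above the value in PT-like cells. Lef1 was higher in every ko mouse in Stroma-like cells (0.92) and lower in every ko mouse in Pod-like cells (-1.57), 2.49 apart. These results were picked because all mice of a genotype lay on one side in one class and on the other side in another, and the difference was not tested for any of the 3. Only the highest and second-highest tested class of each member, and any class where it was called, were searched. Over all tested classes, Wnt7b, Wnt5a, Axin2 and Lgr5 also had classes in both directions. The value of Wnt4 in PT-like cells was 0.12 without the cells marked by Scrublet.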

How the results depend on the processing

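No paired analysis was possible because the labels pair none of the mice of the pool. The bulk samples carry replicate numbers, which the labels do not describe as pairs, and they were not analysed here. With 2 mice per genotype, no filter on low counts changed the number of genes called most, to 485 in NPC-like cells (155 in the reported fit), 589 in PT-like (59), 410 in SSB-like (94), 316 in DT-like (72), 441 in cluster 5 (174), 159 in cluster 7 (42) and 203 in cluster 8 (58). DESeq2 called 112 genes in PT-like, 56 in SSB-like and 30 in DT-like cells, 71 in cluster 5 and 25 in cluster 8. Without cells marked by Scrublet there were 103 in NPC-like and 43 in DT-like cells, and k-means tag assignment gave 96 in PT-like cells and 27 in cluster 7. The 2 calls of members became 10 without a filter, where the genes called rose in every class and cluster given above. They became 1 with the Wnt genes kept in the clustering or a minimum of 2500 UMIs. The change of Wnt4 in PT-like cells was -1.15 with the Wnt genes kept and -1.003 with 2500 UMIs, both no longer past the threshold, and 0.12 without cells marked by Scrublet. Wnt16 in NPC-like cells passed without a filter (2.62) and was 1.64 without cells marked by Scrublet. The causes were not tested.

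With 1 mouse left out at a time, the lone mouse was assumed to vary like the pair of the other genotype. Genes called ranged from 4 to 1317 in NPC-like, 47 to 1563 in PT-like, 67 to 988 in SSB-like and 35 to 596 in DT-like cells, and from 6 to 869 in cluster 5, 53 to 432 in cluster 7 and 3 to 193 in cluster 8, and calls of members from 0 (without ko 1) to 20 (without wt 4). Wnt4 ranged from 0.74 to 1.41 in NPC-like, 0.15 to 0.67 in CD-like and -1.43 to -1.15 in PT-like cells, and from -0.33 to 0.18 in cluster 7 and 0.57 to 1.57 in cluster 5. Wnt9b ranged from 0.27 to 1.52 in CD-like and -0.023 to 0.29 in UB-like cells, Wnt11 from -1.02 to 1.05 in UB-like and -1.45 to 0.94 in Stroma-like cells, and Wnt7b from -0.77 to 0.14 in SSB-like cells. Wnt5a ranged from 0.23 to 0.84 in Stroma-like and 0.35 to 0.65 in LOH-like cells, Wnt16 from 0.58 to 1.17 in ErPT-like and 1.81 to 3.87 in NPC-like cells, Lef1 from -1.82 to -1.10 in Pod-like and 0.51 to 1.71 in Stroma-like cells, and Lgr5 from -0.89 to -0.038 in SSB-like cells. Over all cells, Wnt4 ranged from -0.65 to -0.20, Wnt11 ranged from -0.19 to 0.45, Wnt7b from -0.17 to 0.34, Wnt16 from -0.41 to 0.31 and Axin2 from -0.61 to 0.23. Of 253 log2 changes under alternatives that kept all mice, 226 kept their direction and side of the threshold, and of 180 without a mouse, 119 did. Most of these changes had not passed in the reported fit, and they counted as kept when they again did not pass. A missing adjusted p was also counted as kept where the direction held. Classes were named anew in each clustering and held other cells, 601 PT-like cells in place of 903 with the Wnt genes kept. No cluster was named SSB-like with the Wnt genes kept or with 2500 UMIs, so no SSB-like value was recomputed there. Low UMI counts limit Wnt2b, and Wnt16 in NPC-like cells.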
